A study of Mus musculus with 6 samples.

Results

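RNA of 7 secreted proteins of the angiopoietin family was followed in cultures of mouse enteric glial cells (EGCs), which support the neurons of the gut wall, with and without lipopolysaccharide (LPS), a component of the outer membrane of Gram-negative bacteria. The 7 genes were the angiopoietins Angpt1 and Angpt2 and the angiopoietin-like genes Angptl1, Angptl2, Angptl4, Angptl6 and Angptl7, out of 46603 annotated genes in the count files. They were taken by gene symbol, and the family was chosen by its LPS fold changes in these same libraries. The LPS differences of the members below are therefore a description, and an adjusted p beside one gives the place of the gene in the fit over all genes and is not independent evidence. All 7 had a row, and 6 passed the filter on low counts, Angptl1 being the exception.

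The cells came from neurospheres grown from the embryonic gut of C57BL/6J mice and then plated as an adherent culture. The embryonic day was the same for every library of both groups. The control group held 3 libraries of untreated cultures, and the LPS group held 3 libraries of cultures kept with LPS at 100 ng/ml for 12 h. The labels name no genetic change in either group. Whether the libraries of a group came from separate embryo preparations is not given in the sources used here, so the p-values measure the spread between these libraries alone.

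The libraries held 18775316 to 23664312 counts assigned to genes. The glial markers were present, with 8 of 8 past the filter and a summed level of 626 to 846 CPM (counts scaled to a library of 1000000) in control libraries and 655 to 689 CPM in LPS libraries. Other cell types were present too. The 8 fibroblast markers summed to 15169 to 15728 CPM in control and 14792 to 15350 CPM in LPS libraries. The 10 macrophage markers, none of them at 0, stood at 4021, 5181 and 12144 CPM in control libraries 1, 2 and 3 and at 3915, 5071 and 19013 CPM in LPS libraries 1, 2 and 3. The third library of each group thus held the most macrophage RNA. Of 10 endothelial markers, 8 passed the filter, and the list summed to 79.7 to 186 CPM in control and 123 to 206 CPM in LPS libraries. Cldn5 and Esam did not pass, and Pecam1 and Cdh5 were at most 6.12 CPM in any library. In bulk RNA of such a mixture, fewer cells of a type and less RNA per cell cannot be told apart.

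Angiopoietins and angiopoietin-like proteins share a coiled-coil stretch and, at the C-terminal end, a domain related to fibrinogen. Angiopoietin-1 is released by mesenchymal and mural cells and activates the receptor tyrosine kinase Tie2, the product of Tek, on endothelial cells, where angiopoietin-2 acts mostly as an antagonist. The angiopoietin-like proteins do not bind Tie2: ANGPTL4 inhibits lipoprotein lipase and is known as a target of PPAR nuclear receptors, hypoxia-inducible factor and glucocorticoids, whereas ANGPTL2 acts through integrins and the immunoglobulin-like receptor PIRB.

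Among the members, LPS cultures held more Angptl4 and Angpt1 and less Angptl7 and Angptl2. Mean Angptl4 was 23.3 times its control level and mean Angpt1 was 3.19 times, while mean control Angptl7 was 22.4 times the LPS level and mean control Angptl2 was 1.58 times. In the fit over all 15226 genes tested, 2 members were called higher and 2 lower at an adjusted p under 0.05, where 9.09% of all genes were called higher and 6.71% lower. Once the number of the library entered as a block (the replicate block), the members called were 2 higher and 3 lower, the added one being Angptl6, where 15.4% of all genes were called higher and 14.9% lower. Since the family was taken up for this contrast, nothing is read from these counts against the background.

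**Figure D1:**
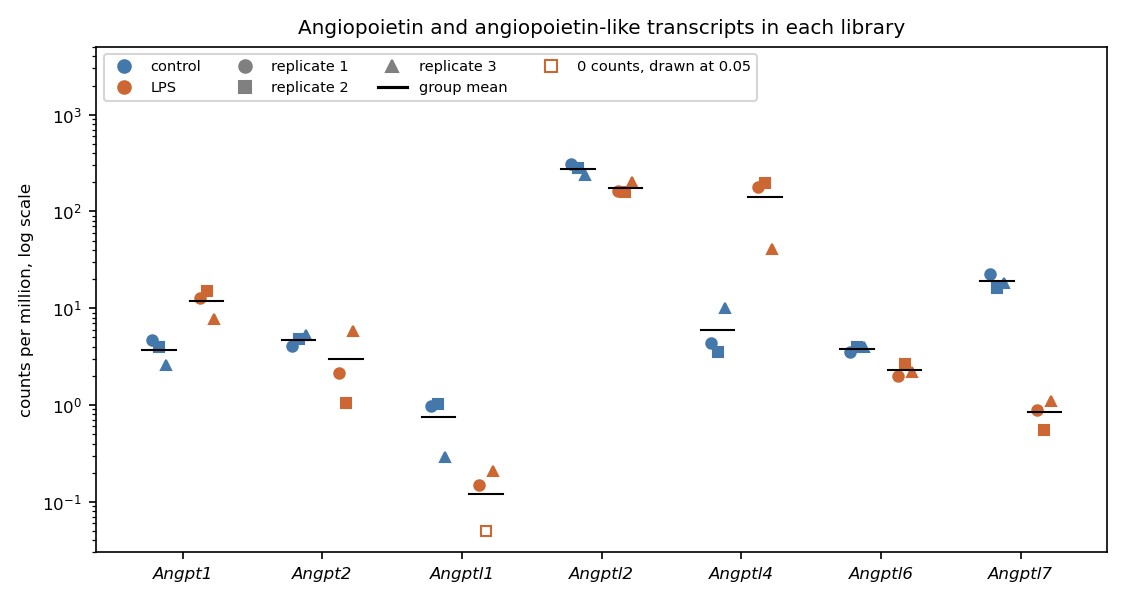
CPM of the 7 members in each of the 6 libraries, on a log axis; colours are control and LPS, shapes the replicate number, lines the mean of each group of 3, and the open square a library with 0 counts drawn at 0.05. Angptl4 rose from 3.54 to 10.0 CPM in control to 40.9 to 198.4 CPM in LPS, whereas Angptl7 went from 16.2 to 22.8 CPM down to 0.557 to 1.10 CPM.

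Upstream sequence is shown for the members that were called lower, because it can be set beside their values. The bases come from RefSeq on GRCm38.p6, which listed 4 of the 7 members (Angptl1, Angptl2, Angptl6 and Angptl7; Angptl4, Angpt1 and Angpt2 were not matched). Each run holds the 250 bases before the RefSeq start of the gene, 5′ to 3′ on the strand of the gene, and capitals mark matches to the E-box CANNTG.
Angptl7, chr4:148500463-148500712, minus strand: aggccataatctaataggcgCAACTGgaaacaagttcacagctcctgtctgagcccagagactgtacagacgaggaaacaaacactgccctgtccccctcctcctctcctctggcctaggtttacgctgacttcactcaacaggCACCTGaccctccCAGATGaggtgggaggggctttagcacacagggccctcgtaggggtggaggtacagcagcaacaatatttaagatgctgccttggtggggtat
Angptl2, chr2:33215711-33215960, plus strand: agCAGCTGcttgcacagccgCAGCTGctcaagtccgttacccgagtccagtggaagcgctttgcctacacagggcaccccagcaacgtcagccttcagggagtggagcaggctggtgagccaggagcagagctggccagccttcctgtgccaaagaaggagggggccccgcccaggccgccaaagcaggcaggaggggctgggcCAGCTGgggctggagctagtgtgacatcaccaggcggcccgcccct

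Both runs held 3 E-box matches, and Angptl1 and Angptl6 held 1 each. At least 1 match was found in 66.2% of the 32851 promoters of the table, so the motif is common. The share with 3 or more was not counted, so whether 3 is many is not shown. Guanine and cytosine made up 54.4% of the Angptl7 run and 66.8% of the Angptl2 run, against a median of 52.4% over all promoters. On both strands, 8 further motifs were searched and had 0 matches in the 4 members. They were TATAAA (in 12.4% of all promoters), TGANTCA (6.75%), GAAANNGAA (7.13%), ACGTG (16.6%), AGGTCA (14%), AGAACA (16.1%), the NF-κB motif (3.90%) and the CArG box (1.47%). An absent match says only that these letters are not in this window.

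To compare the members with each other, counts were divided by the length of the exons of each gene and by the effective library size, giving CPM per kilobase. On this scale Angptl2 led the control cultures with 44.0 ± 5.85 (SD, n = 3), and Angptl7 came next at 8.83 ± 1.55. Angptl6 at 2.42 ± 0.168, Angptl4 at 1.69 ± 0.997 and Angpt2 at 1.27 ± 0.168 followed, and the values of Angptl4 overlapped those of both neighbours in the order. Angpt1 at 0.715 ± 0.205 and Angptl1 at 0.268 ± 0.144 were lowest, and their values overlapped with no neighbour. Among 15182 genes tested with a known length, control Angptl2 stood at percentile 93.6 and control Angptl7 at percentile 65.8.

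In LPS cultures the order changed. Angptl4 came first at 39.5 ± 24.3 CPM per kilobase, with Angptl2 next at 27.9 ± 3.55, and the libraries of these neighbours overlapped. Angpt1 at 2.28 ± 0.728, Angptl6 at 1.44 ± 0.226, Angpt2 at 0.808 ± 0.668 and Angptl7 at 0.393 ± 0.127 followed, and each neighbouring pair from Angpt1 to Angptl7 overlapped. Angptl1 was last at 0.0420 ± 0.0379, below every other value. By percentile, Angptl4 moved from 27.8 to 91.5 and Angpt1 from 16.0 to 33.3, while Angptl7 moved from 65.8 to 10.0 and Angptl2 from 93.6 to 87.3.

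As a share of the summed level of the 7 genes, Angptl2 made up 74.2% ± 3.24 in control and 42.4% ± 20.3 in LPS cultures. The Angptl4 share was 2.96% ± 2.01 in control, and 62.2%, 64.6% and 23.8% in LPS libraries 1, 2 and 3. Angptl7 held 14.9% ± 1.66 in control and 0.617% ± 0.389 in LPS cultures. In LPS library 3 the pool was still mostly Angptl2, as in the control libraries.

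**Figure D2:**
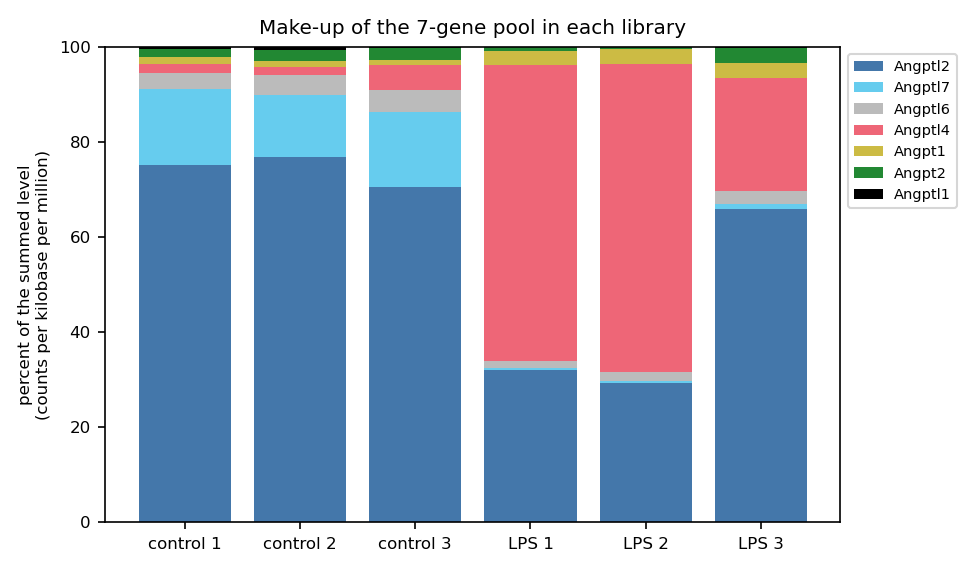
Share, in percent, of each member in the summed level of the 7 genes (CPM per kilobase of exon) in each of the 6 libraries. Angptl2 made up 74.2% of the pool on average in control libraries, whereas Angptl4 held 62.2%, 64.6% and 23.8% in LPS libraries 1, 2 and 3.

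Angptl4 (ENSMUSG00000002289, GRCm38 chr17:33773750-33781830, minus strand) encodes the lipase inhibitor of the family. Its level was 4.41, 3.54 and 10.0 CPM in control libraries 1, 2 and 3 and 180.4, 198.4 and 40.9 CPM in LPS libraries 1, 2 and 3. Every LPS library was above every control library, but library 3 was the highest of the controls and the lowest of the LPS group. The means were 6.00 ± 3.53 and 139.9 ± 86.2 CPM (SD, n = 3 each), and edgeR put the log2 fold change at 4.54 (SE 0.76, adjusted p = 0.0165).

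The size of the Angptl4 difference depended on the pair of libraries. Between libraries of the same number, the difference of log2(CPM + 0.5) was 5.20 for number 1, 5.62 for number 2 and 1.97 for number 3. Without library 3 of both groups the log2 fold change was 5.59 (edgeR adjusted p = 6.59e-07). The sign held with each library left out in turn (log2 fold changes of 4.20 to 5.16), yet the adjusted p was 0.0792, 0.0853, 0.0558 and 0.0615 without control 1, control 2, LPS 1 and LPS 2. Library 3 of both groups stood apart in several marker lists. The sums of the macrophage and endothelial markers were highest there. The endothelial sums were 79.7, 83.4 and 186 CPM in control and 123, 151 and 206 CPM in LPS libraries. The 6 neuronal markers were lowest there, at 391, 377 and 223 CPM in control and 365, 368 and 239.7 CPM in LPS libraries. So were the 3 markers of interstitial cells of Cajal, the pacemaker cells of the gut, at 203, 204 and 68.2 CPM in control and 87.0, 78.4 and 50.5 CPM in LPS libraries. The part of these cell types in the weaker Angptl4 difference of library 3 was not tested.

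Lipoprotein lipase, the enzyme that ANGPTL4 inhibits, was abundant. Lpl stood at 1061, 1238 and 1437 CPM in control and at 508, 505 and 1197 CPM in LPS libraries. LPS libraries 1 and 2 lay below all controls, while LPS library 3 lay within the control range. The log2 fold change was -0.76 (edgeR adjusted p = 0.227), -0.87 with the replicate block (adjusted p = 0.0434), and -1.30 without LPS library 3 (adjusted p = 0.00495). Per kilobase, the ratio of Angptl4 to Lpl was 0.0123, 0.00847 and 0.0207 in control libraries and 1.05, 1.16 and 0.101 in LPS libraries. These RNA ratios were thus higher in all 3 LPS libraries than in any control, and close to parity in LPS libraries 1 and 2.

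Of 10 listed lipases and partners, 8 passed the filter, 2 rose and none fell, with a median log2 fold change of 0.34 against -0.02 over all genes. With the replicate block 2 rose and 2 fell, without LPS 3 or under DESeq2 3 rose and 2 fell, without library 3 of both groups 5 rose and 3 fell, and under upper-quartile scaling or scaling by total 1 rose and 1 fell. Endothelial lipase, Lipg, another enzyme that ANGPTL4 can inhibit, rose from 13.0, 10.8 and 18.0 CPM to 27.0, 27.5 and 41.4 CPM (log2 fold change 1.20, adjusted p = 0.0324). Furin, a proprotein convertase known to cleave angiopoietin-like proteins, rose by 0.46 on the log2 scale (adjusted p = 0.0458). Pcsk6, a related convertase, read 86.0, 67.4 and 27.2 CPM in control and 28.2, 22.1 and 13.5 CPM in LPS libraries (log2 fold change -1.50, adjusted p = 0.0884, or 0.00541 with the block). Both calls in this list were lost without control 1, control 2, LPS 1 or LPS 2, and that of Furin also without LPS 3, without the filter on low counts and when the libraries were scaled by upper quartile or by total. Hepatic lipase, Lipc, and Gpihbp1, which anchors lipoprotein lipase on capillaries, did not pass the filter.

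Angpt1 (ENSMUSG00000022309, GRCm38 chr15:42424723-42676977, minus strand) encodes the agonist of Tie2. It measured 4.66, 3.94 and 2.56 CPM in control and 12.8, 15.1 and 7.69 CPM in LPS libraries. The groups did not overlap, and library 3 was the lowest in each. The means were 3.72 ± 1.07 and 11.9 ± 3.79 CPM (log2 fold change 1.67, SE 0.34, adjusted p = 0.0270). Leaving out 1 library gave log2 fold changes of 1.46 to 1.91, with the call lost without control 1, control 2, LPS 1 or LPS 2 (adjusted p up to 0.109). At its 5′ end, 14.2% of the exon bases overlap an antisense gene, Gm17473, which had almost no counts.

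Angpt2 (ENSMUSG00000031465, GRCm38 chr8:18690263-18741562, minus strand), the antagonist, moved the other way in part of the libraries. Control libraries held 4.03, 4.83 and 5.25 CPM, and LPS libraries 2.12, 1.06 and 5.76 CPM. LPS libraries 1 and 2 lay below all controls and LPS library 3 above them, so the groups overlapped. The log2 fold change was -0.65 (SE 0.59, adjusted p = 0.496), but -1.55 without LPS library 3 (adjusted p = 0.0364) and -1.43 without library 3 of both groups (adjusted p = 0.0148). The sums of the macrophage and of the endothelial markers were highest in LPS library 3. The part of these cell types in its Angpt2 level was not tested. Endothelial genes did not all follow that sum: Tek, given below, had its fewest counts in LPS library 3. Angpt2 lies within Mcph1 on the opposite strand with 0 shared exon bases, and Mcph1 had a log2 fold change of -0.16 (adjusted p = 0.364).

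The balance of Angpt1 and Angpt2 is often given as their ratio. Per kilobase, Angpt1 over Angpt2 was 0.821, 0.579 and 0.346 in control libraries and 4.27, 10.1 and 0.947 in LPS libraries. Angpt2 RNA exceeded Angpt1 RNA in every control library, and Angpt1 RNA exceeded Angpt2 RNA in LPS libraries 1 and 2 but not 3. Angpt4, a further Tie2 ligand outside the members, does not enter this ratio. Its CPM, given further on, was above those of Angpt1 and Angpt2 in every control library, on fewer exon bases (2335). In LPS libraries 1 and 2, but not 3, Angpt1 was above Angpt4.

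The receptor of the angiopoietins was barely detected. Tek had 18, 20 and 8 counts in control and 7, 8 and 3 counts in LPS libraries, and Tie1, the related orphan receptor, was at most 0.419 CPM in any library, and neither passed the filter. Fitted without a filter, Tek had a log2 fold change of -1.07 (adjusted p = 0.332) and Tie1 of 1.51 (adjusted p = 0.514). Ptprb, the endothelial tyrosine phosphatase that dampens Tie2, fell from 7.88, 8.15 and 10.8 CPM to 2.62, 2.79 and 5.44 CPM (log2 fold change -1.31, adjusted p = 0.0499805, just within the threshold). That call was lost under the scaling factors of DESeq2 in edgeR (0.0520), without a filter (0.0519) and in 5 of 6 fits that left out a library, all but the one without LPS 3. The mural markers, for cells that commonly make angiopoietin-1, summed to 541.5 to 638 CPM in control and 398 to 603 CPM in LPS libraries, with 1 of 7 tested higher and 1 lower. Those counts were 2 and 1 with the replicate block, 1 and 2 without control 3, 1 and 3 without LPS 3, 2 and 5 without library 3 of both groups, 0 and 0 without control 2, and 1 and 0 without control 1, LPS 1 or LPS 2.

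**Figure D3:**
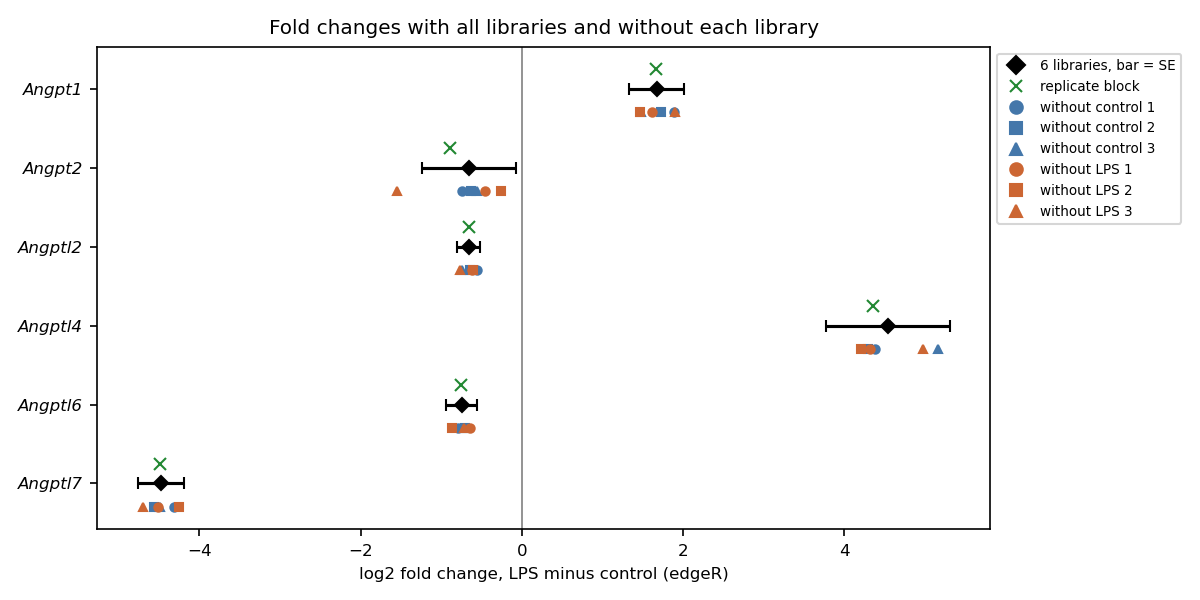
Log2 fold changes, LPS minus control, of the 6 members past the count filter, from edgeR with all 6 libraries (diamond, bar = SE), with the replicate block (cross) and without each library in turn (small marks). Angptl7 stayed between -4.70 and -4.25 whichever library was left out, whereas Angpt2 reached -1.55 without LPS library 3.

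Angptl7 (ENSMUSG00000028989, GRCm38 chr4:148495183-148500460, minus strand) encodes a secreted protein best known from the cornea and the aqueous outflow tract of the eye. It measured 22.8, 16.2 and 18.1 CPM in control and 0.890, 0.557 and 1.10 CPM in LPS libraries, from 537, 367 and 439 counts down to 18, 10 and 21. The groups were far apart and the libraries within a group were close, library 3 included. The means were 19.0 ± 3.35 and 0.849 ± 0.273 CPM, with a log2 difference in the fit of -4.47 (SE 0.28, adjusted p = 0.000727). It was called under 15 of 15 alternative settings, with log2 fold changes of -4.70 to -4.25 when 1 library was left out. It lies within Mtor on the opposite strand with 0 shared exon bases, and Mtor had a log2 fold change of -0.03 (adjusted p = 0.840).

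Angptl2 (ENSMUSG00000004105, GRCm38 chr2:33216069-33247717, plus strand) was the most abundant member of the control cultures. It measured 311.6, 280.4 and 238 CPM in control and 164.5, 160.3 and 201 CPM in LPS libraries. The groups did not overlap, and library 3 was the lowest control and the highest LPS library. The means were 277 ± 36.8 and 175 ± 22.3 CPM (log2 fold change -0.66, SE 0.14, adjusted p = 0.0312). Leaving out control 1, control 2, LPS 1 or LPS 2 ended the call (adjusted p up to 0.123), with log2 fold changes of -0.77 to -0.55 throughout. Angptl2 lies within Ralgps1 on the opposite strand with 0 shared exon bases, and Ralgps1 had a log2 fold change of 0.15 (adjusted p = 0.579).

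Along with Angptl7 and Angptl2, 7 of 8 smooth muscle markers fell, and their sum was 2349 to 2599 CPM in control and 683 to 982 CPM in LPS libraries. Without control 2, 4 of the smooth muscle markers fell. Of 5 mesothelial markers, 2 fell, with sums of 62.4 to 94.5 CPM in control and 32.1 to 55.8 CPM in LPS libraries. All 5 mesothelial markers fell with the replicate block or without LPS 3, 1 fell without control 1 or control 3, and 0 without control 2, LPS 1 or LPS 2. Of 8 fibroblast markers, 2 were called higher and 0 lower. Those counts were 2 and 1 with the replicate block or without LPS 3, 2 and 3 without library 3 of both groups, and 0 and 0 without control 1, control 2, LPS 1 or LPS 2. Of the 3 markers of interstitial cells of Cajal, 1 (Kit) was called lower, 2 with the replicate block and 0 without any 1 library other than control 3, and their sum in control library 3 lay below that of LPS libraries 1 and 2. Whether these cell types had a part in the lower Angptl7 and Angptl2 levels was not tested.

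Partners of ANGPTL2 and ANGPTL4 at the cell surface were expressed. Of 9 listed integrins and other receptors, all passed the filter, 2 rose and none fell (median log2 fold change 0.31), and 4 rose with the replicate block. Itga5, the α-subunit of the fibronectin receptor, rose from 315, 319.5 and 408 CPM to 656, 719 and 805 CPM (log2 fold change 1.06, adjusted p = 0.00861). Its partner Itgb1 was level at 2083, 2113 and 1837 CPM in control and 2147, 2153 and 1647 CPM in LPS libraries (log2 fold change -0.02, adjusted p = 0.940). Sdc4, a heparan sulphate proteoglycan, rose from 78.5, 82.7 and 97.1 CPM to 263, 283 and 173 CPM (log2 fold change 1.48, adjusted p = 0.00991). Neither call held without control 2 (adjusted p of 0.0580 for Itga5 and 0.0642 for Sdc4), and that of Sdc4 was lost without control 1 as well.

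The inhibitory receptor Pirb followed library 3 in both groups. It measured 45.5, 60.2 and 131 CPM in control and 63.8, 92.6 and 293 CPM in LPS libraries, with a log2 fold change of 0.92 (adjusted p = 0.405) and of 0.76 with the replicate block (adjusted p = 0.0242). Without LPS library 3 the difference was -0.01 (adjusted p = 0.988). Pirb is a gene of myeloid cells, and the summed macrophage markers were highest in the same libraries. In libraries 1 and 2, however, Pirb was higher in LPS than in control, while the macrophage sums were slightly lower. The part of macrophages in these Pirb levels was not tested.

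Angptl6 (ENSMUSG00000038742, GRCm38 chr9:20873808-20879727, minus strand), known mainly as a factor released by the liver, was low. It measured 3.52, 3.94 and 4.01 CPM in control and 1.98, 2.67 and 2.20 CPM in LPS libraries. The groups did not overlap, with means of 3.82 ± 0.266 and 2.28 ± 0.357 CPM. The log2 fold change of -0.74 (SE 0.19) missed the threshold with an adjusted p of 0.0522, and passed it with the replicate block (log2 fold change -0.75, adjusted p = 0.0370). It was called in 5 of 15 alternatives, among them DESeq2 (adjusted p = 0.0157). Its value is uncertain in another way: 16.8% of its exon bases lie under A230050P20Rik on the opposite strand, a gene that rose from 16.5, 12.1 and 17.6 CPM to 25.4, 29.9 and 33.0 CPM (adjusted p = 0.0234, and 0.0514 to 0.0900 without control 1, control 2, LPS 1 or LPS 2). The strand setting of the counting is not given in the sources used here, so how reads in the shared bases were counted is not known.

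Angptl1 (ENSMUSG00000033544, GRCm38 chr1:156838562-156861078, plus strand), described as an inhibitor of vessel growth, was barely detected. It had 23, 23 and 7 counts in control and 3, 0 and 4 counts in LPS libraries, or 0.975, 1.02 and 0.289 CPM against 0.148, 0 and 0.209 CPM. All LPS libraries were below all controls, but control library 3 was close to them. LPS libraries 1 and 2 were at or under the floor of 3 counts, and the fit without a filter gave an adjusted p of 0.121. Of its exon bases, 16.4% lie under Gm37802 on the opposite strand, which had 1 count over all 6 libraries. Its host gene, also on the opposite strand, Ralgps2, measured 10.4, 10.3 and 13.0 CPM in control and 4.55, 5.41 and 8.01 CPM in LPS libraries (log2 fold change -0.91, adjusted p = 0.0572, or 0.0151 with the replicate block).

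**Figure D4:**
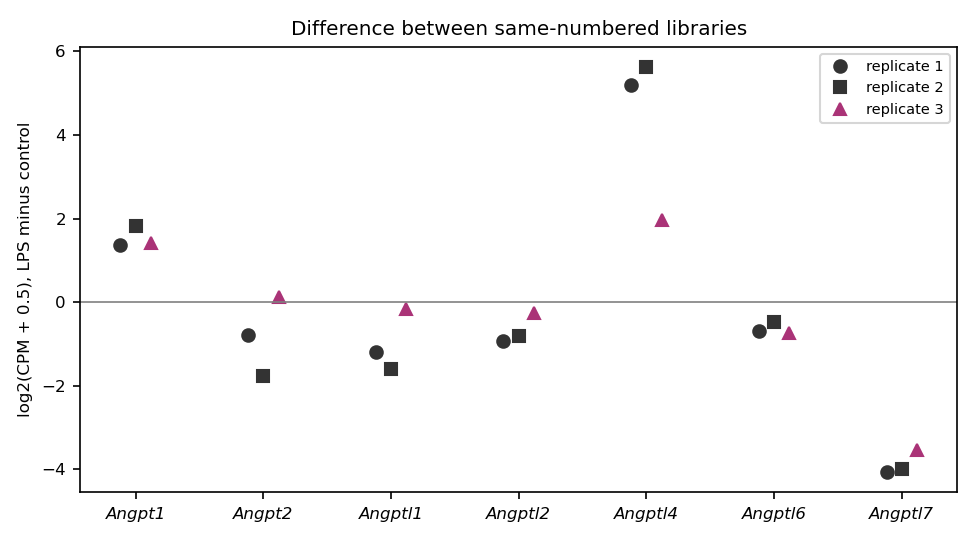
Difference of log2(CPM + 0.5), LPS minus control, between libraries of the same replicate number, for each of the 7 members; each point is 1 pair of libraries. For Angptl4 pair 3 gave 1.97 against 5.20 and 5.62, for Angpt2 it gave 0.12 against -0.79 and -1.77, and for Angptl6 and Angpt1 it lay close to the other pairs.

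The pairs of libraries set the members apart. For Angpt1 the difference was 1.37, 1.81 and 1.42 in pairs 1, 2 and 3, and for Angptl6 it was -0.70, -0.48 and -0.74. For Angptl7 it was -4.06, -3.99 and -3.54. In these members all 3 pairs were alike in sign and similar in size. For Angptl2 the values were -0.92, -0.80 and -0.25, and for Angptl1 they were -1.19, -1.60 and -0.15, pair 3 being the smallest in each, as it was for Angptl4. Angpt2 was the member with a change of sign, at -0.79, -1.77 and 0.12.

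Genes of the pathways known to act on Angptl4, mostly fellow targets, were listed to set its level beside theirs. Of 13 hypoxia-related genes tested, 7 rose and none fell, with a median log2 fold change of 1.60, and 10 rose with the replicate block. Hif1a, the oxygen-sensitive subunit of hypoxia-inducible factor, rose from 303, 293 and 272 CPM to 975, 996 and 651 CPM (log2 fold change 1.60, adjusted p = 0.00509). The glucose transporter gene Slc2a1 rose by 2.03, and the glycolytic genes Pgk1 and Ldha by 1.63 and 1.60, on the log2 scale. Bnip3, a mitophagy receptor, rose from 40.3, 44.6 and 34.3 CPM to 254, 329 and 90.9 CPM (log2 fold change 2.50, adjusted p = 0.0225), so that LPS library 3 was again the lowest of its group. The others that rose were Pdk1, which limits entry of pyruvate into the citric acid cycle, with a log2 fold change of 1.51, and Vegfa, given further on among the growth factors.

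Other members of this list stood lower in library 3 of both groups. Adm, the adrenomedullin gene, measured 28.9, 27.4 and 4.75 CPM in control and 153, 179.9 and 13.1 CPM in LPS libraries (log2 fold change 2.50, adjusted p = 0.172, or 0.00646 with the block). Egln3, which marks hypoxia-inducible factor for degradation, measured 29.2, 29.7 and 8.02 CPM in control and 89.5, 107 and 16.8 CPM in LPS libraries (log2 fold change 1.67, adjusted p = 0.207, or 0.00586 with the block). Without LPS 3 their adjusted p was 0.0401 for Adm and 0.0499 for Egln3, and DESeq2 called Adm as well (0.0301). P4ha1, a collagen prolyl hydroxylase, missed the threshold with all libraries and no block (adjusted p = 0.0851) and passed it with the block (0.00276). The number of this list that rose was 2 without control 2, 4 without control 1, LPS 1 or LPS 2, and 12 without LPS 3.

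Of 15 PPAR factors and targets tested, none was called higher and 3 fell (median log2 fold change -0.39), and 6 fell with the replicate block. Pparg itself fell from 10.4, 11.8 and 13.0 CPM to 2.52, 1.78 and 1.88 CPM (log2 fold change -2.50, adjusted p = 0.00157). Cd36, a fatty acid carrier, fell from 234, 266 and 215 CPM to 82.1, 91.7 and 139.9 CPM (log2 fold change -1.19, adjusted p = 0.0214), and Acaa2, an enzyme of fatty acid oxidation, fell by 0.81 on the log2 scale (adjusted p = 0.0372). Ppard measured 43.5, 40.4 and 45.2 CPM in control and 68.0, 61.2 and 46.3 CPM in LPS libraries (log2 fold change 0.44, adjusted p = 0.106). With 1 library left out, the count that fell ranged from 1 (without control 1, control 2, LPS 1 or LPS 2) to 6 (without LPS 3). Ppard was called higher without LPS 3 (log2 fold change 0.59, adjusted p = 0.0111) and without library 3 of both groups (0.65, adjusted p = 0.00103).

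Of 7 glucocorticoid targets tested, 1 rose and 1 fell (median log2 fold change -0.18), and 3 fell with the replicate block. Sgk1, a kinase of ion transport, rose from 34.2, 34.3 and 57.0 CPM to 88.3, 92.8 and 93.5 CPM (adjusted p = 0.0234). Klf9, a transcription factor, fell from 65.3, 64.9 and 75.0 CPM to 37.0, 37.3 and 49.1 CPM (adjusted p = 0.0228). Both calls were lost without control 1, control 2, LPS 1 or LPS 2. The list as such had no common direction.

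**Figure D5:**
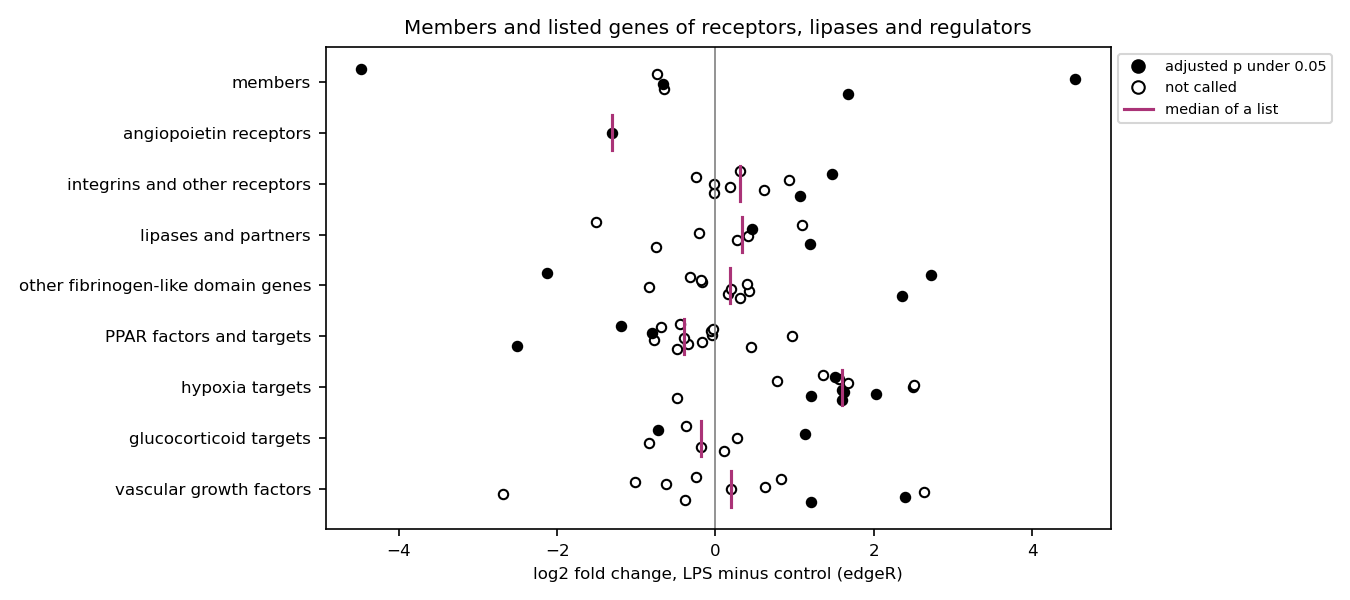
Log2 fold changes, LPS minus control, from edgeR for the 6 tested members and for the tested genes of each list; filled points have an adjusted p under 0.05 and the upright bar is the median of a list. The hypoxia list had a median of 1.60, the PPAR list a median of -0.39, and the members ranged from -4.47 to 4.54.

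Vessel growth factors outside the family gave a mixed picture beside Angpt1. Of 11 tested, 2 rose and none fell (median log2 fold change 0.19), and with the replicate block 3 rose and 5 fell. Without control 1 or control 2, 1 rose, without control 3, 4 rose and 1 fell, and without LPS 3, 3 rose. Vegfa, the main endothelial mitogen, rose from 132, 121 and 163 CPM to 279, 340.5 and 339 CPM (log2 fold change 1.21, adjusted p = 0.00637). Vegfc, a lymphatic growth factor, rose from 14.1, 12.1 and 13.2 CPM to 85.0, 86.3 and 35.7 CPM (log2 fold change 2.39, adjusted p = 0.0117), a call lost without control 1 or control 2. Figf, another lymphatic growth factor, measured 159.6, 134 and 21.6 CPM in control and 23.5, 20.5 and 5.18 CPM in LPS libraries (log2 fold change -2.68, adjusted p = 0.0958, or 0.00170 with the block).

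Of 12 genes outside the family with a fibrinogen-like domain that were tested, 2 rose, 1 fell and 9 were not called, with a median log2 fold change of 0.18. Fgl2, a prothrombinase of macrophages and endothelium, rose from 20.8, 18.2 and 21.4 CPM to 51.0, 58.9 and 199.0 CPM (log2 fold change 2.35, adjusted p = 0.0431), with LPS library 3 far above the others. Without LPS 3 its log2 fold change was 1.44 (adjusted p = 0.00160), and limma-voom did not call it (0.0694). Tnn, tenascin-N, rose from 1.40, 1.51 and 0.372 CPM to 7.26, 8.86 and 5.60 CPM (adjusted p = 0.0229), and Tnxb, tenascin-X, fell from 67.1, 92.8 and 50.7 CPM to 16.2, 15.5 and 16.5 CPM (adjusted p = 0.00407). Without control 1, control 2, LPS 1 or LPS 2 neither rise held, nor did that of Fgl2 without control 3. Inside the family, Angpt4, a further Tie2 ligand, measured 5.97, 7.48 and 11.2 CPM in control and 5.29, 5.29 and 8.43 CPM in LPS libraries (log2 fold change -0.38, adjusted p = 0.458).

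Over these lists 76 genes were tested and 21 called, of which 4 (Hif1a, Pparg, Tnxb and Vegfa) were called whichever library was left out. Without library 3 of both groups all 21 were still called.

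Genes with the most similar pattern were sought over the 6 libraries by Pearson r of log2 CPM, as a description. It rests mostly on the gap between the groups, except for Angpt2, whose groups overlapped. The closest to Angptl4 were Gpr35 (r = 0.9997) and Csrp2 (0.997), and Angptl4 had 45 genes with r over 0.99 out of 11479. The closest to Angptl7 were Nbl1 (0.999) and Sez6l (0.999), and to Angptl2 Col14a1 (0.998) and Dync2li1 (0.996). For Angpt1 they were Mthfd2l (0.998) and Zfp275 (0.997), for Angpt2 Brwd3 (0.994) and Zfp142 (0.993), and for Angptl6 Acd (0.994) and Mical3 (0.986). Among the members, r was -0.98 between Angptl2 and Angptl4 and 0.94 between Angptl2 and Angptl7.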

How the data were processed

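Poly(A) RNA of 3 control and 3 LPS cultures was sequenced from stranded libraries. The deposited values are raw counts per gene, made by the authors with cutadapt 1.15, Bowtie2 2.3.3.1, STAR 2.5.2b, SAMtools 1.5 and featureCounts 1.5.3, per the labels; the strand setting of the counting is not given in the sources used here. The deposited table of all libraries was not used here. Coordinates and exon lengths were taken from GENCODE M21 (GRCm38), which held 98.9% of the gene identifiers.

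Genes were kept by filterByExpr (minimum count 10, total 15), leaving 15226 of 46603. LPS was compared with control in edgeR 4.0.16 (R 4.3.3) with TMM factors, the quasi-likelihood F-test, no covariate, and p-values adjusted by Benjamini-Hochberg over every gene tested; SE is the log2 fold change divided by the root of F. CPM used TMM library sizes, and the differences between numbered pairs a pseudocount of 0.5. Counting intervals and the floor of 3 counts cover counting error only. The script was tested on simulated data.

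Named were all members, listed genes that passed the test, receptors and lipases, genes overlapping a member, and for each member the 2 genes closest in pattern with a mean of at least 5 CPM; Pcsk6, Ppard, Adm, Egln3, P4ha1 and Figf were named after their values were seen. The members and lists were chosen with earlier results of these data known. Other scaling factors and filters, DESeq2 1.42.0, limma-voom 3.58.1, a replicate block and the omission of each library were set as alternatives; the omission of library 3 of both groups was added after seeing the data.

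The labels number the libraries 1 to 3 in both groups without saying what the numbers share. Deviations from the group means correlated over genes at r = 0.51, 0.33 and 0.61 for same-numbered libraries. Libraries 1 and 2 also correlated across numbers (0.42 and 0.32), and library 3 did not (-0.56 to -0.40). LPS 2 was closer to control 1 (0.42) than to control 2 (0.33). The data thus set number 3 apart, but do not settle which libraries of numbers 1 and 2 belong together. Same-numbered libraries were taken as pairs, and the replicate block and the pair differences rest on that choice.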

Additional observations from a re-analysis of the deposited data

How the results depend on the processing

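With the replicate block 2343 genes were called higher and 2273 lower, against 1384 and 1022 without it, and 18 listed pathway genes were lower against 6; among members it changed the call of Angptl6 and of no other. DESeq2 called 2079 genes higher and 1673 lower, and 1589 were lower under upper-quartile scaling and 2054 under scaling by total. Without library 3 of both groups, 3419 genes were higher and 3112 lower, 30 listed pathway genes were higher and 22 lower, and Itgb1 was at 0.06. Scaling by total moved Ralgps1 to -0.0062 and the median over all genes to -0.18 (TMM -0.02). With 1 library left out, 0 to 2 members were called higher and 1 to 3 lower; all genes higher ranged from 383 to 1894 and lower from 112 to 1405; listed pathway genes higher from 2 to 25 and lower from 2 to 12. Over the same fits Itgb1 ranged from -0.0839 to 0.0965, Pirb from -0.0142 to 1.52, Ralgps1 from -0.0049 to 0.284 and Mtor from -0.0587 to 0.0534. The cause of these shifts was not tested. Without exon length, the control shares of Angptl2, Angptl7, Angptl6 and Angpt2 were 87.8%, 6.05%, 1.23% and 1.52%. Depth limits Angptl1, Tek and Tie1, which had too few counts to pass the filter and were fitted only without it, and 3 libraries a group limit every call that 1 library can end.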
